A study of Mus musculus with 7 samples.

Results

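Tumor cells of 7 mouse mammary tumors were split by the amount of RNA captured from each cell, and the composition of the RNA was compared between the extremes. The tumors came from control mice, genotype MMTV-PyMT; HK2 f/f, in which the mouse mammary tumor virus promoter drives the polyoma middle T oncogene in the mammary epithelium and the gene of hexokinase 2 is flanked by loxP sites. The controls carried no Cre, so HK2 was not deleted, and per the study's methods they received the same 7 daily tamoxifen injections as the deleted mice, on a C57BL/6 background. Per the labels, the genotype was wild type and the tumors were collected 3 months after they became palpable, whereas the study's methods give the time as near the size limit for the primary tumor, and the sources used here do not settle which holds. Single cells were captured by Drop-seq, in which the polyadenylated RNA of a cell binds to a barcoded bead and each captured molecule is counted once by its unique molecular identifier (UMI). Each tumor gave 1 matrix, and the replicates are numbered 1 to 4 (titles with CB) and 5, 7 and 8 (titles with WT).

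Of 37000 deposited barcodes, 15047 held 200 to 6000 genes and were taken as cells. A cell was taken as a tumor cell when it held at least 2 UMIs of Epcam, Krt8 and Krt18 together, at least 1 UMI of the transgene PYMT, and no more UMIs of Fgb, Fgg, Ptn, Prlr and Cited1 together than of PYMT. These 5 genes mark hormone-sensing luminal cells, the other luminal type of the mammary gland. The rule gave 3145 tumor cells, of which 532 (16.9%) held 3000 or more UMIs and are called RNA-rich, and 1428 (45.4%) held 500 to 1500 UMIs and are called RNA-poor. A tumor contributed 15 to 179 RNA-rich cells (median 60) and 77 to 378 RNA-poor cells (median 143), with replicate 8 giving the fewest of both. A further 689 tumor cells lay between the groups, and 496 held fewer than 500 UMIs.

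The amount of RNA in a cell differs with its size, its position in the cell cycle and its biosynthetic activity, because a cell enlarges before it divides. In droplet data the UMI total also differs with how much of the RNA was released, captured and sequenced, and cells that share a droplet give a high total. Mammary alveolar cells, from which the tumor cells of this model take many of their transcripts, produce milk proteins such as the caseins and whey acidic protein. RNA held in the nucleus and RNA held in the cytoplasm need not be lost together when a cell is damaged. None of these contributions was measured separately here.

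The total UMIs chose the groups and are given as a description. The median RNA-rich cell held 4622 UMIs and the median RNA-poor cell 898.5. Just inside the upper limit, 53 cells held 3000 to 3200 UMIs, and 53 cells just outside it held 2800 to 2999. At 1400 to 1500 UMIs there were 98 cells, with 83 just outside at 1501 to 1600, and at 500 to 550 there were 106, with 93 just outside at 450 to 499. Summed per tumor, RNA-rich cells held 85086 to 1166126 UMIs (median 343999) and RNA-poor cells 64408 to 348971 (median 131228). RNA-rich cells thus held 36.8 to 63.8% of all tumor-cell UMIs of a tumor. Among cells, 5 barcodes occurred in 2 matrices, and 0 of the RNA-rich or RNA-poor barcodes did. Only the upper limit of 6000 genes acted against doublets, and it removed 3 barcodes. Because the rule asks for fixed numbers of UMIs, it was applied again after every cell had been thinned to 500 UMIs, and 42.9% of RNA-rich and 66.6% of RNA-poor cells still met it.

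Both groups had the transcripts of tumor epithelium, in part by the choice of cells. The markers summed below include PYMT, Epcam, Krt8 and Krt18, which the rule used. The 12 markers listed for tumor and alveolar epithelial cells summed to 73891 ± 20318 CPM in RNA-poor cells and 63624 ± 18365 CPM in RNA-rich cells (SD, n = 7), against 24529.9 CPM in barcodes under 200 genes. CPM scale the UMIs of a gene to the total of the sum it is part of, so they give a share of the captured RNA and not an amount per cell. The barcodes under 200 genes hold free RNA from the cell suspension and can hold small or damaged cells. Markers of other cell types were present at levels that differed by type, with endothelial markers at 5.32 and 6.32 CPM in RNA-poor and RNA-rich cells and T/NK markers at 78.3 and 50.1 CPM. Neutrophil markers summed to 2.89 and 0.245 CPM in RNA-poor and RNA-rich cells. Of the listed genes, 4 of 6 for neutrophils and 6 of 8 for endothelial cells had UMIs. Mmp9 and Camp of the neutrophil list and Emcn and Cldn5 of the endothelial list had 0 in both groups. Macrophage and monocyte markers were higher, at 1083 and 901 CPM, as were fibroblast markers at 592 and 639.9 CPM, dendritic markers at 643 and 208 CPM and erythroid markers at 3787 and 626 CPM.

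At equal depth, RNA-rich cells held slightly more different genes. After every cell was thinned to 500 UMIs, the mean number of genes per cell was 366.5 ± 7.73 in RNA-poor and 380.9 ± 9.91 in RNA-rich cells (SD, n = 7 tumors). The difference of 14.3 genes (SD 7.90) was positive in 7 of 7 tumors (two-sided exact sign-flip permutation test, p = 0.015625, the smallest that 7 pairs can give). The range over tumors was 353 to 375 genes in RNA-poor and 371 to 397 in RNA-rich cells, so the groups overlapped while each pair moved the same way.

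Few genes differed in their share of the RNA. The sums of each tumor were compared by edgeR's quasi-likelihood test with each tumor as a block, and the adjusted p-values below come from this fit (Benjamini-Hochberg, over every tested gene). Of 4159 genes tested, 12 were higher in RNA-rich cells (0.289% of genes tested) and 18 were lower (0.433%), or 30 in all (0.721%). With the total UMIs as library size instead of TMM normalization, the split was 21 higher and 15 lower. The median log2 fold change of all tested genes was -0.01, and 0.04 with the total UMIs. Fold changes below are after TMM, whereas CPM and the pairs counted from them are scaled to the total UMIs. A gene was higher in RNA-rich cells in 7 of 7 pairs for 125 genes (3.01%) and lower in 7 of 7 for 50 (1.20%), and for 0 genes (0%) did the values of the groups not overlap. The groups were chosen on the UMIs per cell, of which RNA-rich cells held 6.25 times as many, so these differences are in shares of the captured RNA and say nothing of the number of molecules in a cell. Pooled over tumors, all 30 genes had more UMIs per RNA-rich cell. The choice of groups gives this to any gene whose pooled share falls less than 6.25-fold, so it is a description. By tumor, Hba-a1 and Hbb-bs had fewer UMIs per RNA-rich than per RNA-poor cell in 5 of 7, Cd74 in 2, H2-Ab1, Cirbp and Saa3 in 1 each, and the other 24 in 0. For Malat1, the most abundant of the 18, there were 8.11 UMIs per RNA-poor and 30.1 per RNA-rich cell.

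Of the 12 genes that rose, 6 act in DNA replication or mitosis: Top2a (topoisomerase II alpha, which untangles DNA before the chromosomes separate), Mki67 (the proliferation marker Ki-67), Birc5 (survivin, a subunit of the chromosomal passenger complex), Ube2c (which passes ubiquitin to substrates of the anaphase-promoting complex), Smc2 (a condensin subunit) and Pclaf (a partner of the replication clamp PCNA). Their summed share was 151 ± 76.5 CPM in RNA-poor and 501 ± 245 CPM in RNA-rich cells, and it was higher in 7 of 7 tumors. This sum is over genes picked by the test and is given as a description. Genes of this kind are commonly controlled through CCAAT boxes and through the cell cycle homology region, whose core is often TTTGAA, near the start of the gene. The RefSeq promoter windows (250 bases before to 50 after the start, GRCm38.p6, written on the strand of the gene) of the 3 with most matches are shown because these genes rose together, with TTTGAA and CCAAT on either strand in capitals (TTCAAA and ATTGG are the reverse complements):
Top2a (chr11:99024140-99024439, minus strand): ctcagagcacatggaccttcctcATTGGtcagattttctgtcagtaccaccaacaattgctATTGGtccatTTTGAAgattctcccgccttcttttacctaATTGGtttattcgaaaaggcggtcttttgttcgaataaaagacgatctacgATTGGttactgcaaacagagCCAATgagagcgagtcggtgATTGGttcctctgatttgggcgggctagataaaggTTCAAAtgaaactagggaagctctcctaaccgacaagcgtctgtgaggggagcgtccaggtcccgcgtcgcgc
Mki67 (chr7:135716330-135716629, minus strand): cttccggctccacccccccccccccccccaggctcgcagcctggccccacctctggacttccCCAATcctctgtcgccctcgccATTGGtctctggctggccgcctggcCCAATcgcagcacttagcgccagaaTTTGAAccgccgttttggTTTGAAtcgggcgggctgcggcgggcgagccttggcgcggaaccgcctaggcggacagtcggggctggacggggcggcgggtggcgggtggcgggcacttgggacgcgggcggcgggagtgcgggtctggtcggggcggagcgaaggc
Ube2c (chr2:164769679-164769978, plus strand): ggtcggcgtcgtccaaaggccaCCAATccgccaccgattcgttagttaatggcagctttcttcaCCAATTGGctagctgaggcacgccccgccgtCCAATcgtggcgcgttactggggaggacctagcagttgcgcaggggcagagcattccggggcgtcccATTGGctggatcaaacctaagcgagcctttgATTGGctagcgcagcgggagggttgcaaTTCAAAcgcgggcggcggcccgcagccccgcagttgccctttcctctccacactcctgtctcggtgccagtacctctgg

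Top2a held 2 TTTGAA and 6 CCAAT matches, Mki67 held 2 and 3, and Ube2c held 1 and 6. Smc2 held 2 and 1, Pclaf 0 and 2, and Birc5 0 and 0. Of all 32851 promoter windows of the same length, 17.9% held a TTTGAA and 37.4% a CCAAT. A match is a description of these letters and not a site of binding.

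Top2a (ENSMUSG00000020914.17, chr11:98992943-99024189, mm10) ranged from 6.88 to 46.0 CPM in RNA-poor cells (median 23.8) and from 24.9 to 212 CPM in RNA-rich cells (median 72.0). It rose in 7 of 7 tumors, from 25.9 ± 13.4 to 107 ± 70.8 CPM (mean ± SD, n = 7), and the groups overlapped because replicate 7 was low throughout (log2 fold change 1.88 ± 0.26 SE, adjusted p = 0.000107). Mki67 (ENSMUSG00000031004.8, chr7:135689784-135716361) ranged from 0 to 53.6 CPM in RNA-poor cells (median 30.5) and from 36.9 to 128 CPM in RNA-rich cells (median 78.6). It rose in 7 of 7 tumors from 29.3 ± 16.4 to 79.9 ± 33.1 CPM (mean ± SD, n = 7), with replicate 7 at 0 in RNA-poor cells (log2 fold change 1.61 ± 0.28 SE, adjusted p = 0.00265). Pclaf (ENSMUSG00000040204.6, chr9:65890237-65903266) ranged from 9.11 to 47.6 CPM in RNA-poor cells (median 24.1) and from 30.8 to 165 CPM in RNA-rich cells (median 65.5) and rose in 7 of 7 tumors (log2 fold change 1.44 ± 0.27 SE, adjusted p = 0.00484).

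For the other 3, replicate 5 went the other way. Birc5 (ENSMUSG00000017716.15) ranged from 6.88 to 38.3 CPM in RNA-poor cells (median 15.5) and from 32.0 to 123 CPM in RNA-rich cells (median 70.5) and was higher in 6 of 7 tumors (log2 fold change 1.89 ± 0.32 SE, adjusted p = 0.00204). Ube2c (ENSMUSG00000001403.13) ranged from 0 to 75.3 CPM in RNA-poor cells (median 15.3) and from 11.6 to 176 CPM in RNA-rich cells (median 86.3) and was higher in 6 of 7 (log2 fold change 1.54 ± 0.32 SE, adjusted p = 0.0113). Smc2 (ENSMUSG00000028312.19), named after its values were seen, ranged from 9.11 to 59.4 CPM in RNA-poor cells (median 30.5) and from 37.7 to 143 CPM in RNA-rich cells (median 56.5) and was higher in 6 of 7 (log2 fold change 1.27 ± 0.27 SE, adjusted p = 0.0154). All 6 were low in absolute terms, with 21 to 39 UMIs each over all RNA-poor cells and 186 to 231 over all RNA-rich cells. Their summed share in barcodes under 200 genes was 285 ± 88.2 CPM, between that of the 2 groups of tumor cells.

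**Figure D1:**
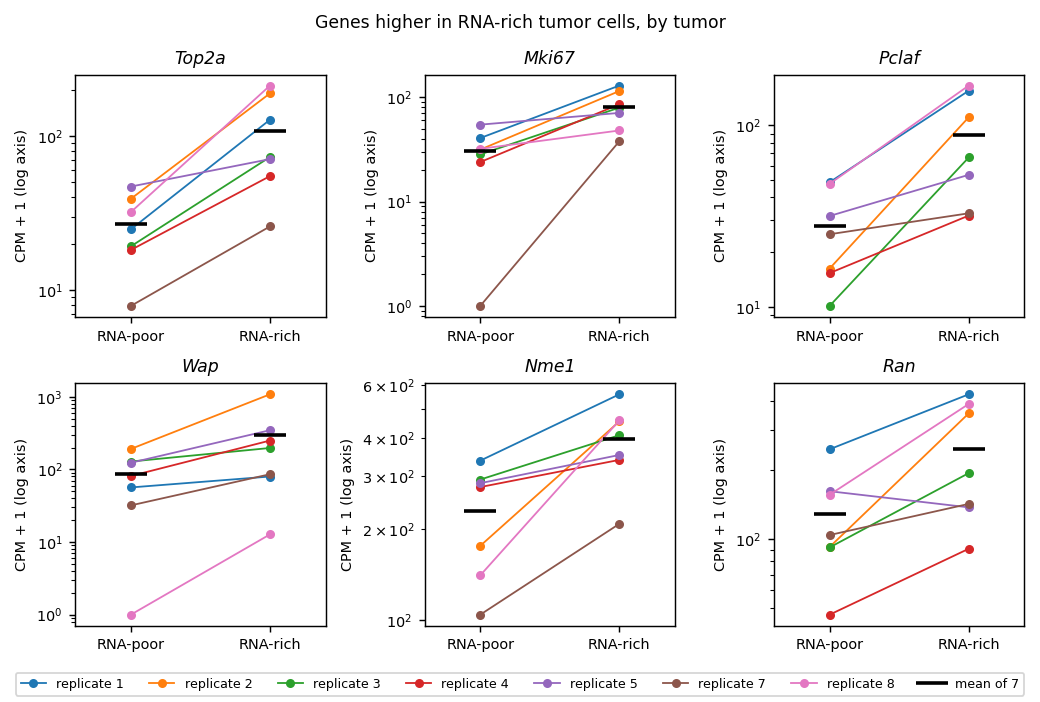
CPM plus 1 on a log axis for 6 genes called higher, in RNA-poor and RNA-rich cells of each of 7 tumors, with 1 line per tumor and black bars for the means. All lines rise for Top2a, Mki67, Pclaf, Wap and Nme1, while Ran falls in replicate 5, and the groups overlap for each gene.

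The wider cell cycle lists had higher sums in RNA-rich cells. Of 35 genes listed for G2 and mitosis, 15 passed the filter on low counts and 5 of these rose (Top2a, Mki67, Birc5, Ube2c and Smc2), against 0.289% of all genes tested. Genes with as few UMIs in RNA-poor cells as these can pass the filter through their RNA-rich sums, so the count over tested members is a description, and that 0 fell carries no information. The sum over all 35, which does not depend on the filter but includes the 5 called genes, was 1646 ± 438 CPM in RNA-poor cells and 2751 ± 865 CPM in RNA-rich cells (SD, n = 7) and was higher in 7 of 7 tumors. Among members that did not pass the test were Hmgb2 (a chromatin protein) with 118 ± 61.2 CPM in RNA-poor and 205 ± 127 CPM in RNA-rich cells (log2 0.66, adjusted p = 0.224) and Cks2 (a partner of cyclin-dependent kinases) with 48.7 ± 26.8 CPM in RNA-poor and 82.0 ± 19.6 CPM in RNA-rich cells (log2 0.61, adjusted p = 0.269). Of 29 genes listed for G1 and S phase, 6 were tested and 0 were called in either direction, against 0.721% of all genes tested. At an unadjusted p under 0.05 there were 3, all higher, against 4.59% of all genes tested. The same limit of the filter holds for them. The sum over all 29 was 903 ± 226 CPM in RNA-poor cells and 1364 ± 301 CPM in RNA-rich cells (SD, n = 7), higher in 7 of 7 tumors. Pcna, the replication clamp, was at 93.6 ± 27.1 CPM in RNA-poor and 146 ± 46.7 CPM in RNA-rich cells (log2 0.54, adjusted p = 0.163), and the cyclin Ccnd1 was at 201 ± 74.8 CPM in RNA-poor and 272 ± 85.5 CPM in RNA-rich cells (log2 0.41, adjusted p = 0.24).

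Pooled over tumors, more RNA-rich cells held a mitotic transcript, also at equal depth. Before thinning, 32.9% of RNA-rich and 7.35% of RNA-poor cells held a UMI of at least 1 of the 6 genes, at median depths of 4622 and 898.5 UMIs. Thinned to 500 UMIs, the shares were 12.0% and 4.20%, with 0 cells left out of either group. The share at 500 UMIs was higher in RNA-rich cells in 6 of 7 tumors, and in replicate 5 it was 5.0% in RNA-rich and 5.63% in RNA-poor cells. In immune cells with 500 or more UMIs, chosen by 3 or more UMIs of leukocyte genes and at a median of 788 UMIs, it was 12.0% at 500 UMIs. Cells of the 7 tumors were pooled for these shares, which are given without a test because the 6 genes were picked for being higher. Immune cells may divide as well, so this is not a level of background.

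Wap, the gene of whey acidic protein, rose among the milk protein genes. Wap (ENSMUSG00000000381.10, chr11:6635482-6638637) ranged from 0 to 191 CPM in RNA-poor cells (median 80.2) and from 11.8 to 1082 CPM in RNA-rich cells (median 196). It was higher in 7 of 7 tumors, with replicate 2 the highest and replicate 8 the lowest in both groups (log2 fold change 1.53 ± 0.19 SE, adjusted p = 2.62e-05). A single RNA-rich cell of replicate 2 held 160 of the 695 RNA-rich UMIs (23.0%), and without that tumor the log2 fold change was 1.20. Pooled over tumors at 500 UMIs, 4.70% of RNA-rich and 1.96% of RNA-poor cells held a Wap UMI. The share was 0.292% in immune cells, which should lack it. Before thinning these pooled shares were 15.6%, 3.01% and 0.438%. By tumor, the gap at 500 UMIs was widest in replicates 5 and 2, the latter at 10.2% of RNA-rich and 2.10% of RNA-poor cells. It was smaller in replicates 1, 3, 4 and 7, with 3.57% and 3.39% in replicate 3. In replicate 8 both shares were 0. The shares are given without a test because Wap was picked for being higher.

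The milk protein list as a whole did not move in 1 direction. Of 16 genes, 9 were tested, 1 rose and 0 fell (0.289% and 0.433% of all genes tested), while 4 were higher and 1 lower at an unadjusted p under 0.05 (4.59% and 5.41% of all genes tested). The summed level was 30226 ± 10312 CPM in RNA-poor cells and 29832 ± 11966 CPM in RNA-rich cells (SD, n = 7), higher in 3 of 7 tumors. Csn1s1 (alpha-S1 casein) was at 484 ± 649 CPM in RNA-poor and 1487 ± 1744 CPM in RNA-rich cells (log2 1.26, adjusted p = 0.0761), higher in 5 of 7. Lalba (alpha-lactalbumin) was at 1409 ± 782 CPM in RNA-poor and 1898 ± 966 CPM in RNA-rich cells (log2 0.36, adjusted p = 0.451). Csn3 (kappa casein), the most abundant gene of the tumor cells, was at 26450 ± 10110 CPM in RNA-poor and 21850 ± 7635 CPM in RNA-rich cells (log2 -0.33, adjusted p = 0.226) and was higher in 2 of 7.

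Nme1, Ran and Lyar, which also rose, act in growth and nuclear transport. Nme1 (ENSMUSG00000037601.11, chr11:93956979-93968521), a nucleoside diphosphate kinase, ranged from 103 to 337 CPM in RNA-poor cells (median 275) and from 208 to 559.6 CPM in RNA-rich cells (median 409) and rose in 7 of 7 tumors (log2 fold change 0.68 ± 0.13 SE, adjusted p = 0.00508). Its exons overlap a second annotated gene on the same strand, Gm20390, and reads of the pair may have been divided between them. Ran (ENSMUSG00000029430.13), the GTPase of nuclear transport and spindle assembly and named after its values were seen, ranged from 45.8 to 246 CPM in RNA-poor cells (median 103) and from 89.8 to 427 CPM in RNA-rich cells (median 193) and rose in 6 of 7 (log2 fold change 0.79 ± 0.17 SE, adjusted p = 0.0162). Lyar (ENSMUSG00000067367.9), a nucleolar protein, ranged from 30.5 to 119 CPM in RNA-poor cells (median 62.1) and from 82.3 to 176 CPM in RNA-rich cells (median 109.8) and rose in 7 of 7 (log2 fold change 0.80 ± 0.18 SE, adjusted p = 0.0275). Nme1 lost its call under 3 of 22 alternatives, while Ran lost it under 9 and Lyar under 13, with adjusted p up to 0.999 when the tumors were not used as a block.

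Genes of ribosome assembly leaned the same way without passing the test. Of 27 listed, 22 were tested and 0 were called, against 0.721% of all genes tested. Of the 22, 20 had a fold change above 0, with a median of 0.23 against -0.01 over all genes. Their sum was 4558 ± 899.6 CPM in RNA-poor cells and 5563 ± 1345 CPM in RNA-rich cells (SD, n = 7), higher in 6 of 7 tumors. Npm1 (nucleophosmin, a nucleolar chaperone) was at 646 ± 201 CPM in RNA-poor and 876 ± 272 CPM in RNA-rich cells (log2 0.36, adjusted p = 0.15) and higher in 7 of 7. Of 79 ribosomal protein genes, 78 were tested and 0 were called in either direction, against the same 0.721%. Their fold changes were below 0 for 59 and above 0 for 19, against 2142 and 2017 over all genes tested, with a median of -0.04. Of the 78, 3 had an unadjusted p under 0.05, all lower, against 5.41% of all genes tested. Their sums were 136214 ± 26032 CPM in RNA-poor cells and 137639 ± 31584 CPM in RNA-rich cells (SD, n = 7).

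Car2 and Saa3 complete the 12. Car2 (ENSMUSG00000027562.12), carbonic anhydrase 2, ranged from 53.6 to 264 CPM in RNA-poor cells (median 68.8) and from 76.3 to 393 CPM in RNA-rich cells (median 149) and rose in 7 of 7 tumors (log2 fold change 0.73 ± 0.16 SE, adjusted p = 0.0243), with the call lost under 11 of 22 alternatives. Saa3 (ENSMUSG00000040026.8), an acute-phase serum amyloid protein, ranged from 0 to 67.4 CPM in RNA-poor cells (median 13.8) and from 0 to 1044 CPM in RNA-rich cells (median 58.8) and was higher in 6 of 7 (log2 fold change 2.07 ± 0.43 SE, adjusted p = 0.0117). However, 1 RNA-rich cell of replicate 5 held 354 of its 497 UMIs (71.2%), and without that tumor the log2 fold change was 0.80 (adjusted p = 0.354). Of the 20 tested genes of the acute-phase and secreted defense list, Saa3 alone was called, against 0.721% of all genes tested. At an unadjusted p under 0.05 the list had 3 higher and 5 lower, against 4.59% and 5.41%. Lcn2 (lipocalin 2, which binds siderophores) was at 11560 ± 3846 CPM in RNA-poor and 9843 ± 3564 CPM in RNA-rich cells (log2 -0.29, adjusted p = 0.268).

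Among long noncoding RNAs that stay in the nucleus, Malat1 took a smaller share in RNA-rich cells. Of 16 listed, 11 were tested, 3 fell (Malat1, Gm42418 and Xist) and 0 rose, against 0.433% and 0.289% of all genes tested. The 3 include Gm42418, whose reads are known to include ribosomal RNA, and Xist, which lost its call under 17 of 22 alternatives. The sum over the list was 12934 ± 4041 CPM in RNA-poor cells and 8726 ± 1890.3 CPM in RNA-rich cells (SD, n = 7), lower in 7 of 7 tumors, and 27814 CPM in barcodes under 200 genes. Malat1 carried most of that fall, with a mean of 9355 CPM in RNA-poor and 5655 CPM in RNA-rich cells. Malat1 (ENSMUSG00000092341.3, chr19:5795690-5802672), an abundant RNA of nuclear speckles, ranged from 6269 to 16833 CPM in RNA-poor cells (median 8915) and from 3414 to 9085 CPM in RNA-rich cells (median 5350.2). It fell in 7 of 7 tumors, most in replicate 2 and least in replicate 8 (log2 fold change -0.74 ± 0.13 SE, adjusted p = 0.00204). Without replicate 2 the log2 fold change was -0.57, still past the threshold.

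Xist (ENSMUSG00000086503.4, chrX:103460366-103483254), which coats the inactive X chromosome, ranged from 528 to 1029 CPM in RNA-poor cells (median 835) and from 396 to 790.4 CPM in RNA-rich cells (median 587) and was lower in 6 of 7 tumors, all but replicate 8 (log2 fold change -0.49 ± 0.12 SE, adjusted p = 0.039). Its call was lost under 17 of 22 alternatives, with adjusted p of 0.039 here and up to 0.999 when the tumors were not used as a block, and its exons overlap Tsix on the other strand. Gm42418 (ENSMUSG00000098178.1, chr17:39846958-39848788) ranged from 61.9 to 761 CPM in RNA-poor cells (median 209) and from 77.2 to 482 CPM in RNA-rich cells (median 88.1) and was lower in 6 of 7 (log2 fold change -0.73 ± 0.16 SE, adjusted p = 0.0152). Gm26917 (ENSMUSG00000097971.3, chr17:39843013-39846341), which lies beside it and was named after its values were seen, ranged from 0 to 358 CPM in RNA-poor cells (median 86.0) and from 11.8 to 114 CPM in RNA-rich cells (median 56.5) and was lower in 6 of 7 (log2 fold change -1.19 ± 0.20 SE, adjusted p = 0.0014). Reads of these 2 loci are known to include ribosomal RNA, Gm42418 overlaps AY036118 on the other strand, and whether counting used the strand is not given in the sources used here. Gm23935 (ENSMUSG00000076258.1), annotated as a miRNA gene and also named after its values were seen, ranged from 166 to 1129 CPM in RNA-poor cells (median 510.1) and from 154 to 658 CPM in RNA-rich cells (median 376) and was lower in 6 of 7 (log2 fold change -0.77 ± 0.17 SE, adjusted p = 0.0247). The call was lost under 10 of 22 alternatives for Gm23935 and under 8 of 22 for Gm42418. Poly(A) capture does not measure mature miRNAs, so this value is not a miRNA level.

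C530043A13Rik (ENSMUSG00000100444.1, chr1:73522095-73529790), a long noncoding RNA outside that list, ranged from 77.6 to 265 CPM in RNA-poor cells (median 175) and from 22.9 to 184 CPM in RNA-rich cells (median 62.7). It was lower in 7 of 7 tumors (log2 fold change -1.07 ± 0.19 SE, adjusted p = 0.00304). Its share in barcodes under 200 genes was 60.5 CPM, below RNA-poor cells in 7 of 7 matrices, whereas Malat1 was at 23440.2 CPM there, above RNA-poor cells in 7 of 7.

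Hemoglobin and antigen-presentation transcripts fell, and they were abundant in barcodes under 200 genes. Hbb-bs (ENSMUSG00000052305.6, chr7:103826534-103828096), a beta globin gene, ranged from 15.3 to 10325 CPM in RNA-poor cells (median 998) and from 0 to 1645 CPM in RNA-rich cells (median 39.2). It was lower in 7 of 7 tumors, with replicates 7 and 8 the highest in both groups (log2 fold change -2.77 ± 0.20 SE, adjusted p = 3.95e-10). Hba-a1 (ENSMUSG00000069919.7), an alpha globin gene, ranged from 15.3 to 2748 CPM in RNA-poor cells (median 361) and from 0 to 411 CPM in RNA-rich cells (median 3.92) and was lower in 7 of 7 (log2 fold change -2.89 ± 0.27 SE, adjusted p = 5.83e-08). In barcodes under 200 genes, Hbb-bs took 71632 CPM on average. Both globin families have near-identical gene copies, so the reads of single copies are uncertain.

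The 4 genes of MHC class II presentation that were tested all fell, and in some tumors few cells held most of their UMIs. H2-Ab1 (ENSMUSG00000073421.6, chr17:34257689-34269419), a beta chain, ranged from 18.2 to 450.3 CPM in RNA-poor cells (median 114) and from 9.82 to 113 CPM in RNA-rich cells (median 47.0) and was lower in 7 of 7 tumors (log2 fold change -1.27 ± 0.23 SE, adjusted p = 0.00374). Named after their values were seen were Cd74, the invariant chain (log2 -1.46, adjusted p = 0.00458), the alpha chain H2-Aa (log2 -1.34, adjusted p = 0.00374) and the beta chain H2-Eb1 (log2 -1.20, adjusted p = 0.0177), each lower in 6 of 7. Cd74 ranged from 18.2 to 714 CPM in RNA-poor cells (median 168) and from 13.1 to 113 CPM in RNA-rich cells (median 53.9), with replicates 4 and 8 the highest in RNA-poor cells and replicate 7 going the other way. In replicate 5, the highest RNA-rich cell held 36 of 39 UMIs for Cd74, 36 of 39 for H2-Ab1 and 18 of 25 for H2-Aa. For H2-Eb1 it was 21 of 57 in replicate 7. Among the RNA-poor cells of replicate 5, 3 of 142 held all 22 Cd74 UMIs. Without replicate 4, none of the 4 passed the threshold, with log2 fold changes of -1.06 for Cd74, -0.92 for H2-Aa, -0.94 for H2-Ab1 and -0.75 for H2-Eb1. Pooled over tumors at 500 UMIs, 4.34% of RNA-poor and 2.44% of RNA-rich cells held a Cd74 UMI. The share in immune cells, in whose rule Cd74 counts, was 67.5%. By tumor, the share was lower in RNA-rich cells in replicates 2, 3 and 4 and higher in replicates 1, 5, 7 and 8. Replicate 4 had the widest gap, at 8.47% of RNA-poor and 1.27% of RNA-rich cells. The 4 MHC class II genes are defining genes of dendritic cells and are made by other antigen-presenting cells. The remaining dendritic markers gave too few UMIs to be tested, with Flt3 at 0.

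Levels in barcodes under 200 genes exceeded those in RNA-poor cells for most called genes, of either direction. Of the 18 genes that fell, 12 had a higher mean there than in RNA-poor cells, as had 23.0% of all tested genes. Those below it were Cck, C530043A13Rik, Cirbp, Arid5b, Igfbp5 and Jun. Of the 12 that rose, 10 also had a higher mean there than in RNA-poor cells. A free share was set by hemoglobin, as if all of it in tumor cells, and all RNA in barcodes under 200 genes, were free. It came to 0.304 to 11.01% of the UMIs of RNA-poor cells and 0 to 0.664% of those of RNA-rich cells. Barcodes under 200 genes can hold cells too, so this range is not an upper limit, and the subtraction below carries the same assumption. The highest value is that of replicate 2, where 3 of 143 RNA-poor cells held all 131 UMIs of Hbb-bs, and the next highest is 4.29%. The share subtracted in that tumor thus rests on a few cells. With that share subtracted, an alternative added after the data were seen, 12 genes rose and 5 fell, the 5 being Malat1 (-0.68), C530043A13Rik, Cck, Igfbp5 and Jun. The 4 MHC class II genes kept a negative fold change (-0.92 to -0.90) but not the call. The globin genes themselves cannot be tested after this step.

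Other cell types were measured beside the result through their whole marker lists. Cells with 1% or more of their UMIs in markers of other types made up few of either group, and without them 96.6% of RNA-rich and 95.1% of RNA-poor cells remained. The fit then called 14 genes higher and 13 lower. Hbb-bs was still lower (-0.77) and Cd74 was at -0.60 (adjusted p = 0.376), both being among the markers used to leave cells out. Macrophage and monocyte markers summed to 1083 ± 601 CPM in RNA-poor cells and 901 ± 512 CPM in RNA-rich cells (SD, n = 7), and fibroblast markers to 592 ± 1128 CPM in RNA-poor cells and 639.9 ± 1054 CPM in RNA-rich cells (SD, n = 7). Other lists had higher means in RNA-rich cells. Hormone-sensing luminal markers, 5 of which enter the rule, summed to 165 ± 48.4 CPM in RNA-poor cells and 272 ± 203 CPM in RNA-rich cells (SD, n = 7), higher in 5 of 7 tumors. Myoepithelial markers summed to 166 ± 75.7 CPM in RNA-poor cells and 239 ± 201 CPM in RNA-rich cells (SD, n = 7) and pericyte or smooth muscle markers, 3 of them shared with the myoepithelial list, to 20.4 ± 11.8 CPM in RNA-poor cells and 56.1 ± 95.0 CPM in RNA-rich cells (SD, n = 7), each higher in 4 of 7. Replicate 8, with 15 RNA-rich cells, was the highest in RNA-rich cells for these 3 lists, at 717, 599 and 270 CPM against 155, 202 and 15.5 CPM in its RNA-poor cells. The hormone-sensing and myoepithelial lists were not among those used to leave cells out, and their part in the results was not tested. In replicates 7 and 8, whose matrices list mitochondrial genes, these took 1.79% and 3.05% of the UMIs of RNA-poor and 1.38% and 2.96% of those of RNA-rich cells. The median cell was at 1.67% and 2.99% in RNA-poor and at 1.29% and 3.06% in RNA-rich cells, so replicate 8 gave no lower median.

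**Figure D2:**
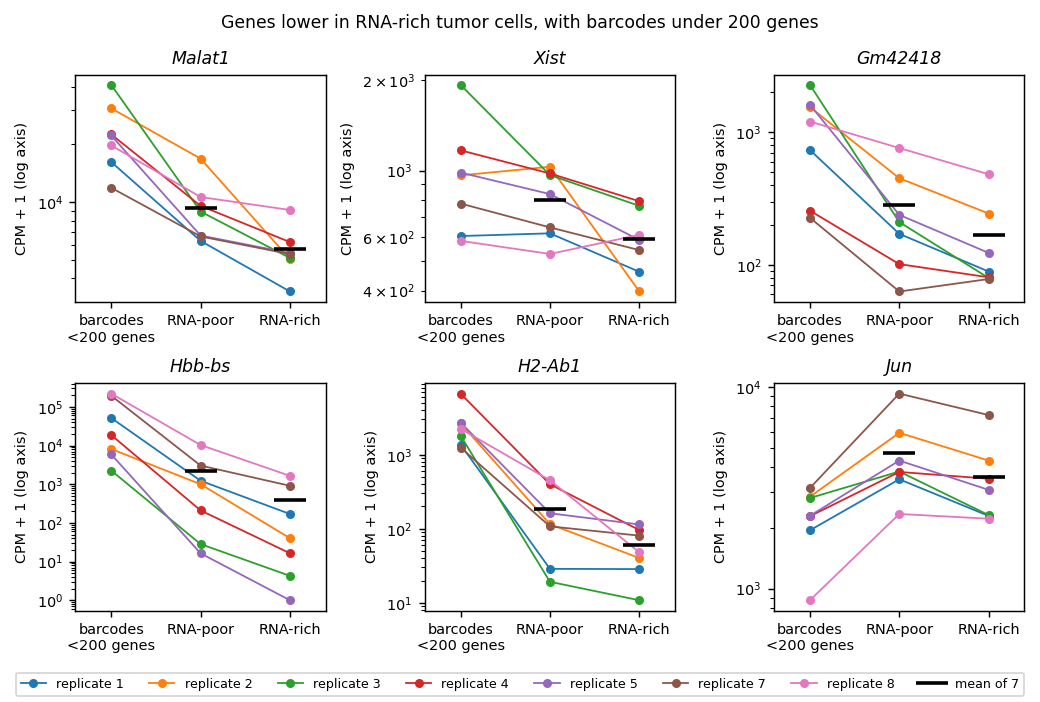
CPM plus 1 on a log axis for 6 genes called lower, in barcodes under 200 genes and in RNA-poor and RNA-rich tumor cells of each of 7 tumors, with 1 line per tumor and black bars for the means of the tumor cells. Malat1, Gm42418, Hbb-bs and H2-Ab1 are highest in the barcodes under 200 genes in 7 of 7 tumors, and Jun is lowest there in 6 of 7, all but replicate 3.

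Jun, a subunit of the AP-1 transcription factor that is induced within minutes by stress and growth signals, fell in every tumor. Jun (ENSMUSG00000052684.4, chr4:95049034-95052222) ranged from 2344 to 9259.7 CPM in RNA-poor cells (median 3806) and from 2221 to 7251 CPM in RNA-rich cells (median 3087), with replicate 7 the highest and replicate 8 the lowest in both groups (log2 fold change -0.45 ± 0.09 SE, adjusted p = 0.0117). The call was lost under 7 of 22 alternatives, and its exons overlap Junos on the other strand. In the list of immediate early and heat shock genes, 31 of 33 were tested, 1 fell and 0 rose, with 11 lower and 2 higher at an unadjusted p under 0.05, against 5.41% and 4.59% of all genes tested. Their sum was 43915 ± 11060.5 CPM in RNA-poor cells and 39044 ± 11500.1 CPM in RNA-rich cells (SD, n = 7), lower in 6 of 7 tumors. Fos, the partner of Jun, was at 7124 ± 5321 CPM in RNA-poor and 5253 ± 3973 CPM in RNA-rich cells (log2 -0.56, adjusted p = 0.077), and Junb at 1730 ± 688 CPM in RNA-poor and 1412 ± 688 CPM in RNA-rich cells (log2 -0.38, adjusted p = 0.0716), the latter lower in 7 of 7. The mitochondrial chaperone Hspd1 was at 156 ± 58.1 CPM in RNA-poor and 249.8 ± 72.3 CPM in RNA-rich cells (log2 0.54, adjusted p = 0.119) and higher in 7 of 7.

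A further 5 protein-coding genes fell. Igfbp5 (ENSMUSG00000026185.8), which binds insulin-like growth factors and was named after its values were seen, ranged from 2593 to 6774 CPM in RNA-poor cells (median 5235) and from 2677 to 5031 CPM in RNA-rich cells (median 3218) and was lower in 6 of 7 tumors (log2 fold change -0.47 ± 0.10 SE, adjusted p = 0.0154). Cck (ENSMUSG00000032532.7), the gene of the peptide hormone cholecystokinin, ranged from 46.6 to 178 CPM in RNA-poor cells (median 68.9) and from 19.6 to 84.7 CPM in RNA-rich cells (median 36.7) and was lower in 7 of 7 (log2 fold change -1.12 ± 0.20 SE, adjusted p = 0.00302). Cirbp (ENSMUSG00000045193.13), a cold-inducible RNA-binding protein, ranged from 61.3 to 127 CPM in RNA-poor cells (median 93.2) and from 11.8 to 86.6 CPM in RNA-rich cells (median 35.3) and was lower in 7 of 7 (log2 fold change -0.88 ± 0.21 SE, adjusted p = 0.0329). Arid5b, a DNA-binding transcription factor (log2 -0.62, adjusted p = 0.0375), and Cst3, the secreted protease inhibitor cystatin C (log2 -0.40, adjusted p = 0.0458), were also lower in 7 of 7. Of these 5, Cck held its call most often, under 16 of the 18 alternatives that gave it a value, and Cst3 least often, under 7 of 22. Cirbp lost it under 13 of 20, Arid5b under 14 of 22 and Igfbp5 under 8 of 22.

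Regulators of mammary lineage leaned lower. Of 28 listed, 18 were tested and 0 were called in either direction, where 0.721% of all genes tested were called. Of the 18, 6 had an unadjusted p under 0.05, all lower (against 5.41% of all genes tested), and 17 had a fold change below 0. The sum over the list was 6626 ± 955 CPM in RNA-poor cells and 6057 ± 632 CPM in RNA-rich cells (SD, n = 7), lower in 7 of 7 tumors. Kit, a receptor of luminal progenitors, was at 179.8 ± 53.3 CPM in RNA-poor and 110 ± 66.1 CPM in RNA-rich cells (log2 -0.67, adjusted p = 0.0891), and Sox9, a progenitor transcription factor, at 516 ± 111 CPM in RNA-poor and 412 ± 91.6 CPM in RNA-rich cells (log2 -0.33, adjusted p = 0.258). Genes of MHC class I and the interferon response gave 22 tested, 0 called, and 7 with an unadjusted p under 0.05, all lower, against the same 5.41%. Their most abundant member B2m, the light chain of class I, was at 3624 ± 1629 CPM in RNA-poor and 3021 ± 1671 CPM in RNA-rich cells (log2 -0.38, adjusted p = 0.112).

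Metabolic and protein-turnover lists held no called gene, where 0.721% of all genes tested were called. In oxidative phosphorylation, 74 of 76 nuclear genes were tested, 0 were called, and 7 higher and 1 lower had an unadjusted p under 0.05 (4.59% and 5.41% of all genes tested), with a sum of 26081 ± 2113 CPM in RNA-poor cells and 27635 ± 2194 CPM in RNA-rich cells (SD, n = 7), higher in 6 of 7 tumors. Proteasome and ubiquitin genes summed to 9464 ± 612 CPM in RNA-poor cells and 10113 ± 634 CPM in RNA-rich cells (SD, n = 7), higher in 7 of 7, with 0 of 32 called and 3 higher and 1 lower at an unadjusted p under 0.05. Endoplasmic reticulum genes (42 of 48 tested, 0 called) and translation factors (33 of 34 tested, 0 called) had median log2 fold changes of 0.11 and 0.10. At an unadjusted p under 0.05 they gave 4 higher and 1 lower, and 3 higher and 0 lower. Atp5b, a subunit of ATP synthase, was at 591 ± 123 CPM in RNA-poor and 779.7 ± 111 CPM in RNA-rich cells (log2 0.33, adjusted p = 0.14) and higher in 7 of 7.

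**Figure D3:**
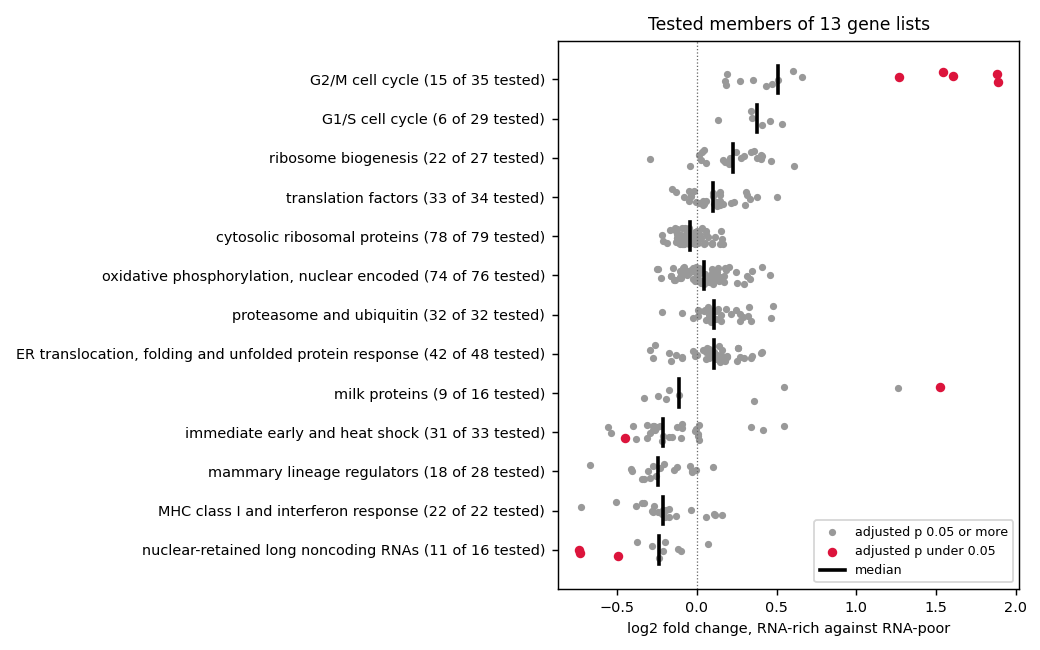
Log2 fold change of RNA-rich against RNA-poor cells for the tested members of 13 gene lists, with 1 point per gene, red for adjusted p under 0.05 and a black line at the median. Called genes are 5 of the G2/M list and 1 milk protein gene to the right, and Jun and 3 members of the nuclear RNA list to the left.

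Levels did not all change evenly with the UMIs per cell. The 6 mitotic genes summed to 127 ± 110.4 CPM in tumor cells under 500 UMIs, 151 ± 76.5 at 500 to 1500, 162 ± 82.6 at 1501 to 2999, 350.3 ± 226 at 3000 to 6000 and 688 ± 345 above 6000 (SD, n = 7). Up to 3000 UMIs the means differed by less than 1 SD, and they were highest in the 166 cells above 6000. Malat1 was at 14239.6 ± 6987, 9355 ± 3695, 6833 ± 2367, 5467 ± 1251 and 5865 ± 2739 CPM in the same order, with no further fall above 6000. Nme1 took 223 ± 49.1, 229 ± 88.8, 319 ± 77.7, 388 ± 129 and 419.8 ± 128 CPM. The 4 MHC class II genes summed to 491 ± 389, 639 ± 625, 326 ± 313, 218 ± 143 and 184 ± 190 CPM. Against cells of 500 to 1500 UMIs, their sum was higher in 3 of 7 tumors under 500, at 1501 to 2999 and at 3000 to 6000 UMIs. Above 6000 UMIs it was higher in 1 of 7. The groups were defined on these totals, and the bins are given without a test.

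Without the cells above 6000 UMIs fewer genes were called, while many fold changes were about as large. With RNA-rich cells limited to 3000 to 6000 UMIs (366 cells), 2 genes rose (Wap and Nme1) and 3 fell (Hbb-bs, Malat1 and Gm42418), of 2637 genes tested, and 15 of the 20 called genes that could be tested lost the call. All 15 kept their direction, and beside the value with all RNA-rich cells the log2 fold change was -0.48 (against -0.47) for Igfbp5, -0.49 (against -0.49) for Xist, 0.73 (against 0.73) for Car2 and -0.75 (against -0.62) for Arid5b. Smaller values were those of Jun, at -0.26 (against -0.45), and Cst3, at -0.24 (against -0.40). The sums of that fit held fewer UMIs, and the part of depth in the lost calls was not tested. The 6 mitotic genes were below the filter on low counts in that fit, and their summed share was higher than in RNA-poor cells in 6 of 7 tumors for cells of 3000 to 6000 UMIs and in 7 of 7 above 6000.

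**Figure D4:**
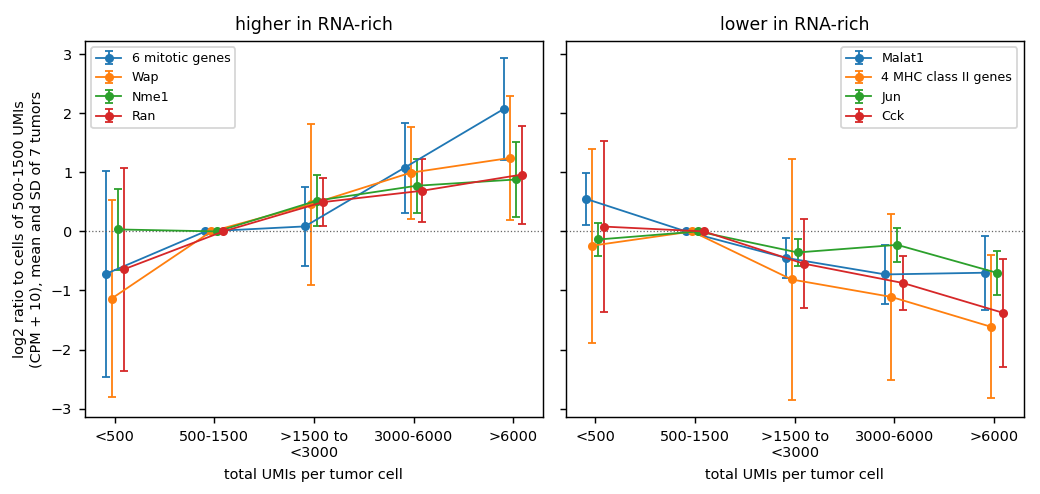
Log2 ratio of the share in 5 bins of UMIs per tumor cell to that in cells of 500 to 1500 UMIs (CPM plus 10), as mean and SD of 7 tumors, for genes higher (left) and lower (right) in RNA-rich cells. The 6 mitotic genes lie within 1 SD of 0 up to 3000 UMIs and reach 2.08 above 6000, while Malat1 falls from 0.55 under 500 UMIs to -0.70 above 6000.

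The same split was made in hormone-sensing luminal cells, to see where tumor cells differed. These held at least 2 UMIs of Epcam, Krt8 and Krt18 together, and more UMIs of the 5 marker genes than of PYMT. In the 6 tumors with 10 or more cells in all groups, there were 265 RNA-rich and 706 RNA-poor such cells. Of 4243 genes, 0 (0%) differed between the cell classes in their change by edgeR's interaction test, and 152 (3.58%) did at an unadjusted p under 0.05. In hormone-sensing cells alone, 1 gene rose (0.0236%), Ube2c, and 6 fell (0.141%), namely Apoe, Cd74, Gm23935, H2-Aa, H2-Ab1 and H2-Eb1. Top2a had a log2 fold change of 1.16 there, and the difference of 0.63 ± 0.46 SE had an adjusted p of 1. Cck was at 0.36 there, a difference of -1.48 ± 0.51 (unadjusted p = 0.00696, adjusted p = 1). These p-values do not show that the classes changed alike.

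Against immune cells, 28 genes differed in their change, 18 with a larger value in tumor cells (0.398% of 4524 tested) and 10 with a smaller one (0.221%). Only 3 tumors had 10 or more cells in all groups, with 37 RNA-rich immune cells in all. In immune cells alone, 85 genes rose (1.88%) and 267 fell (5.9%). None of the genes called in tumor cells and tested here was among the 28. Immune cells of unlike type can fill the RNA-rich and RNA-poor groups, and Spp1 (osteopontin, which also ranked 6 among all genes by its level in tumor cells, log2 difference -3.44 ± 0.42 SE, edgeR adjusted p = 0.000924) and Ctsd (cathepsin D, -2.31 ± 0.35, adjusted p = 0.00400) were among those with the smaller value in tumor cells. The immediate early genes Junb (1.33 ± 0.30, adjusted p = 0.0486) and Jund (1.70 ± 0.37, adjusted p = 0.0483) were among those with the larger one, their log2 fold changes being -0.31 and -0.10 in tumor cells and -1.64 and -1.80 in immune cells.

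What separates the CB and WT titles is not given in the sources used here. The change differed between them for 4 of 4159 genes (0.0962%, and 4.04% at an unadjusted p under 0.05), namely Saa3, Hba-a1, Sparc and Dcn. Sparc, a matrix protein made by fibroblasts among other cells, had a log2 fold change of -1.45 in the 4 CB tumors and 1.36 in the 3 WT tumors. A single RNA-rich cell of replicate 5 held 81 of the 89 Sparc UMIs of that tumor. The fibroblast markers moved in the same tumors, from 68.9 to 936 CPM in replicate 5 and from 134 to 362 CPM in replicate 7 (RNA-poor to RNA-rich), with a lower sum in RNA-rich cells in the other 5, and their part in the result was not tested. In the CB series alone 11 genes rose and 17 fell, and in the WT series alone 1 rose and 4 fell. Top2a had log2 fold changes of 2.07 and 1.49, Wap 1.55 and 1.46, and Malat1 -1.06 and -0.32 in the CB and WT series.

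No gene of the study's own pathway passed the test over the 7 tumors. Of 18 listed, 10 were tested and 0 were called, against 0.721% of all genes tested. At an unadjusted p under 0.05 there were 0, against 4.59% higher and 5.41% lower of all genes tested. With 10 genes, these counts cannot set the list apart from those shares. Hk2 (ENSMUSG00000000628.10) was too low to be tested, at 37.5 ± 24.2 CPM in RNA-poor and 35.2 ± 21.9 CPM in RNA-rich cells. Hk1, the related hexokinase, was at 68.8 ± 24.4 CPM in RNA-poor and 59.0 ± 20.2 CPM in RNA-rich cells (log2 -0.24, adjusted p = 0.755), Gsk3b (glycogen synthase kinase 3 beta) at 163 ± 35.2 CPM in RNA-poor and 182 ± 27.5 CPM in RNA-rich cells (log2 0.16, adjusted p = 0.757) and Prkar1a (a regulatory subunit of protein kinase A) at 223 ± 55.5 CPM in RNA-poor and 249.9 ± 33.4 CPM in RNA-rich cells (log2 0.18, adjusted p = 0.648). Mcl1 had a log2 fold change of 0.09 ± 0.14 SE, Nfe2l2 of 0.20 ± 0.21, Keap1 of -0.10 ± 0.19, Cdh1 of -0.07 ± 0.14, Cldn1 of 0.25 ± 0.26, Vim of -0.10 ± 0.25 and Sparc of 0.24 ± 0.36. In the CB series alone Sparc was lower in RNA-rich cells by edgeR's test (log2 -1.44, adjusted p = 0.0384), and its sign was not the same under every alternative.

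Genes used by the rule are given as a description. PYMT took 3341 ± 1521 CPM in RNA-poor and 2186 ± 1249 CPM in RNA-rich cells, and a rule of at least 1 UMI raises its share most in cells with few UMIs. Epcam was at 3619 and 3277 CPM, Krt8 at 1848 and 1715 CPM, and Krt18 at 2456 and 2282 CPM.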

How the data were processed

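Drop-seq matrices of 7 control tumors, 1 per mouse, were analyzed, each the file of 1 labelled sample. Per the methods, reads were aligned to a mouse reference (mm10) extended by PyMT. The deposited values are raw UMI counts, in whole numbers, of each gene in each barcode. The submitters' processing notes name STAR and FastQC and the human builds GRCh37.p13 and hg19. Gene identifiers and coordinates are those of GENCODE M21 for mm10. Mitochondrial genes, listed in 2 matrices, were dropped.

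UMIs were summed per tumor and group with Python 3.11.15, numpy 2.4.6, scipy 1.17.1 and pandas 2.3.3. They were compared in R 4.3.3 with edgeR 4.0.16 (quasi-likelihood test after TMM scaling and filterByExpr, with tumor as block and a threshold of 0.05). DESeq2 1.42.0 was an alternative. The 9 genes of the rule stayed in the library size but were not tested. Pairing follows from the design, as each mouse gave both sums of a pair. SE is the size of the log2 fold change divided by the square root of F. Precision follows the UMIs per sum, and intervals between tumors include both animal and technical spread. In simulated data for RNA-rich against RNA-poor tumor cells (4090 genes), 84 of 88 genes changed by 1 on the log2 scale, 84 of 84 changed by 2 and 5 of 3918 unchanged genes were called. Every simulated gene had the same dispersion (0.0149). The counts therefore do not give the power for genes that vary more between tumors.

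The members, gene lists and tests were chosen with earlier results of these data known. Named genes are the called genes with the same sign in every pair and at least 50 CPM in the higher group (up to 15 in each direction, which gave 7 higher and 10 lower), called members of each program list (up to 4 in the majority direction and 2 in the other), the study's pathway genes and the genes of the rule. Others are said to be named after their values were seen. Alternatives covered scaling, tool, filter, block, UMI limits, thinning, other cell types and tumors left out. HK2-deleted tumors were not analysed here.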

Additional observations from a re-analysis of the deposited data

Results flagged for a closer look

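In 7 tumors, the highest or lowest value stood apart from the others by Dixon's criterion for 2 genes. Gm26917 had a difference (RNA-rich minus RNA-poor, log2 of CPM plus 10) of 1.12 in replicate 8, where the RNA-poor cells held 0 UMIs, and of -1.57 to -0.49 in the other tumors. Malat1 had a difference of -1.74 in replicate 2 and of -0.87 to -0.22 in the others. Chance alone marks about 1 in 20 groups in this way.

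The change differed between the WT and the CB tumors for 4 genes by edgeR's interaction test. The WT minus CB difference in log2 fold change was 4.02 for Saa3 (adjusted p = 0.0146), of whose RNA-rich UMIs 71.2% came from 1 cell of replicate 5. It was 2.64 for Hba-a1 (adjusted p = 0.0146), which had 0 UMIs in the RNA-rich cells of replicates 3, 4 and 5. It was 2.81 for Sparc (adjusted p = 0.0166) and 2.87 for Dcn, decorin of the fibroblast matrix (adjusted p = 0.0269). Sparc was higher in RNA-rich cells in 3 of 3 WT tumors and lower in 4 of 4 CB tumors, and 81 of the 89 RNA-rich Sparc UMIs of replicate 5 came from 1 cell. The summed fibroblast markers were lower in RNA-rich cells in 4 of 4 CB tumors, and in the WT tumors they went from 68.9 to 936 CPM in replicate 5, from 134 to 362 CPM in replicate 7 and from 3136 to 2915 CPM in replicate 8 (RNA-poor to RNA-rich). Their part in these differences was not tested.

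The change differed between tumor and immune cells for 28 genes. Csn1s1 and Glycam1 are secretory genes of the mammary epithelium. Their tumor minus immune differences in log2 fold change were 7.41 ± 1.56 SE (edgeR adjusted p = 0.0478) and 7.75 ± 0.89 (adjusted p = 0.000924). The log2 fold changes were 2.46 and 3.64 in tumor cells and -4.95 and -4.11 in immune cells. For Ccl5, a chemokine of T and NK cells, the difference was 5.73 ± 0.73 (adjusted p = 0.000924). Its log2 fold change was 0.33 in tumor and -5.40 in immune cells. These values rest on 3 tumors with 37 RNA-rich immune cells.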

How the results depend on the processing

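No called gene changed sign under any alternative that gave it a value. Genes higher numbered 12, against 21 with total UMIs as library size (lower 15), 6 with DESeq2, 74 with no filter on low counts (24202 genes tested), 6 with 2000 or more against 500 to 1000 UMIs, 2 with 3000 to 6000, 1 with cells chosen at 500 UMIs, 5 in sums thinned to equal totals and 1 in the WT series alone. Genes lower numbered 18, against 3 with 3000 to 6000 UMIs, 2 with cells chosen at 500 UMIs (1838 genes tested), 5 with free RNA subtracted and 4 in the WT series alone. With no replicate block, so that the pairing by tumor was ignored, both counts were 0. Leaving out 1 tumor gave 7 to 16 higher and 10 to 20 lower. Replicates 1, 2 and 4 moved both counts by over 1.5 times (7 and 11, 7 and 11, 7 and 10). Of the 40 genes followed, 10 were not called, all from the study's pathway, and 7 of these changed sign. With 2000 or more UMIs, Mcl1 was at -0.054, Nfe2l2 at -0.033, Keap1 at 0.26 and Cdh1 at 0.023, and with 3000 to 6000 Mcl1 was at -0.0091. With no filter, Keap1 was at 0.016, Cdh1 at 0.037 and Vim at 0.019. Keap1 was at 0.035 at equal totals, Vim at 0.020 with 20 or more cells and at 0.20 with free RNA subtracted, and Sparc at -0.26 without cells of other types. In the CB series, Mcl1 was at -0.13, Keap1 at 0.028, Cldn1 at -0.040, Vim at 0.082 and Sparc at -1.44, and in the WT series Cdh1 was at 0.063. Leaving out 1 tumor gave -0.028 to 0.20 for Mcl1, -0.16 to 0.012 for Keap1, -0.17 to 0.062 for Cdh1, -0.37 to 0.067 for Vim and -0.18 to 0.77 for Sparc. The cause was not tested. The genes per cell at 500 UMIs kept their direction under all 9 alternatives. The small counts of mitotic transcripts limit what could be shown under the tighter limits, where these genes were not tested.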
